A study of Mus musculus with 1047 samples.

Results

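Microglia from the prefrontal cortex of 5xFAD mice were set beside microglia from the same region of WT mice. The members are all cells of the prefrontal cortex experiment, chosen by its table and the genotype label alone: 116 single cells of the 1047 samples of the series, 75 labelled 5xFAD and 41 labelled WT. Sorted cells were processed singly in 96-well plates with Smart-seq2, which covers whole transcripts and has no molecular identifiers. Reads were therefore summed per animal, and the animal was the replicate. The comparison used 4 5xFAD animals (A91 with 7 cells, A93 with 18, A99 with 23 and A100 with 24) and 2 WT animals (A132 with 14 cells and A173 with 27), 113 cells in all. Another 5xFAD animal, A187, gave 3 cells, was male and 5 months old, and is given as values only. The 6 animals compared were labelled female and 7 months old, except A173 at 6 months. The WT animals were C57BL/6J, whereas for the 5xFAD animals the strain label repeats the name of the line. All cells were dissociated with actinomycin D at 45 µM, which blocks transcription, and sorted as live cells positive for CD45 and CD11b.

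Mice of the 5xFAD line carry mutant human transgenes, APP among them, driven by the neuronal Thy1 promoter, and deposit amyloid early in life. Microglia are the resident macrophages of the brain. In amyloid models, microglia near plaques are known to lose homeostatic genes such as P2ry12 and to take on a disease-associated (DAM) program in 2 stages, a first stage with Apoe and class I genes and a second stage that depends on the lipid-sensing receptor Trem2. The DAM program was first described in this same mouse line, so the lists' direction was known beforehand. The transgenes are read in neurons, so the endogenous mouse genes do not check the label: App stood at 10.2, 237, 223 and 259 CPM (reads per 1000000) in A91, A93, A99 and A100, and at 111 and 195 CPM in A132 and A173.

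Each cell held from 103456 to 901348 reads, and summed libraries of the 6 animals held from 2257198 to 10507116 reads. Microglial markers were strong in every animal. The 10 markers summed to between 40711 and 52842 CPM in 5xFAD and to 47367 and 58970 CPM in WT, and the complement gene C1qa, abundant in microglia and named here after its values were seen, spanned 11887 to 13822 CPM. Of other cell types, the 9 genes of border-associated macrophages summed to between 149 and 583 CPM in 5xFAD and to 273 and 387 CPM in WT, with Stab1 the largest part and Lyve1 at 0 in every animal. Other macrophage markers appeared in the pair of prefix M17P3: Mrc1 stood at 64.4 CPM in A99 and 34.6 CPM in A173 and at most 1.33 CPM in the other 4, and Pf4 at 55.0 and 55.6 CPM against at most 0.292 CPM. None of the 12 T and NK cell markers was listed, 3 of 10 neutrophil markers were (Camp at 0, Csf3r carrying nearly all reads), and the 3 listed neuronal markers summed to at most 21.7 CPM, with Rbfox3 at 15.4 CPM in A99 and 21.7 CPM in A100 and under 1 CPM elsewhere. Monocyte markers summed to at most 69.7 CPM, B cell markers to between 536 and 752 CPM in both genotypes, mostly from Ighm, astrocyte markers to between 21.3 and 122 CPM, and endothelial markers to at most 49.2 CPM. Progenitors of oligodendrocytes and mural cells summed to at most 21.6 and 8.01 CPM. Sums of the 4 listed oligodendrocyte markers ranged from 76 to 412 CPM in 5xFAD and stood at 116 and 277 CPM in WT. By single cells, 27 of 116 summed to over 1000 CPM of B cell markers, 19 of neutrophil, 12 of border-associated macrophage, 9 of oligodendrocyte and 1 of monocyte markers, and 62 cells were under that level for every list. With only the cells under that level, A91 dropped out, and edgeR called 0 of 7915 genes (lowest adjusted p = 0.27). Without the macrophage-marker cells alone, log2 fold changes of Trem2, H2-D1 and Capg were 1.25, 2.08 and 4.00. The part of such cells in the results below was otherwise not tested.

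A91 and A132 went against the other animals of their labels in the genes that mark DAM. Apoe, the lipid carrier most abundant among them, stood at 33812, 68799 and 46793 CPM in the 5xFAD animals A93, A99 and A100 but at 365 CPM in 5xFAD A91. In WT it stood at 2653 CPM in A173 but at 32471 CPM in A132. Cell names begin with a prefix ahead of what reads as a plate position, and A91 and A132 are the only animals with the prefix M0416. A99 and A173 share the prefix M17P3, while A93 (M25P2) and A100 (M25P3) stand alone under theirs. A single A173 cell has the prefix M17P5. What a prefix stands for is not given in the labels. Whether the labels of A91 and A132 are right was not tested, and every fold change over all 6 animals takes them as given. Values without A91 and A132 leave 3 5xFAD animals against A173 alone. Since those 2 animals were set aside for their DAM gene levels, such values are descriptions with no test.

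With all 6 animals, no gene passed an adjusted p of 0.05 in either direction (edgeR's quasi-likelihood test, Benjamini-Hochberg adjustment over 9668 genes, 0 called, 0.0%). The lowest adjusted p was 0.76, for Fzr1, an activator of the anaphase-promoting complex. At an unadjusted p under 0.05, 176 genes were higher in 5xFAD (1.82% of those tested) and 139 lower (1.44%). DESeq2, run without the filter on low counts, called 97 genes higher and 92 lower of 13221 tested. The biological coefficient of variation between animals of a genotype was 1.33. Levels that did not overlap were commoner in one direction: every 5xFAD animal was below both WT animals for 809 genes (8.37%) and above both for 331 (3.42%). With scaled library sizes these shares were 6.71% and 4.26%. Labels dealt at random, 4 against 2 animals, would give each pattern with a probability of 0.0667 where no values tie. Whether the imbalance goes with genotype was not tested.

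**Figure D1:**
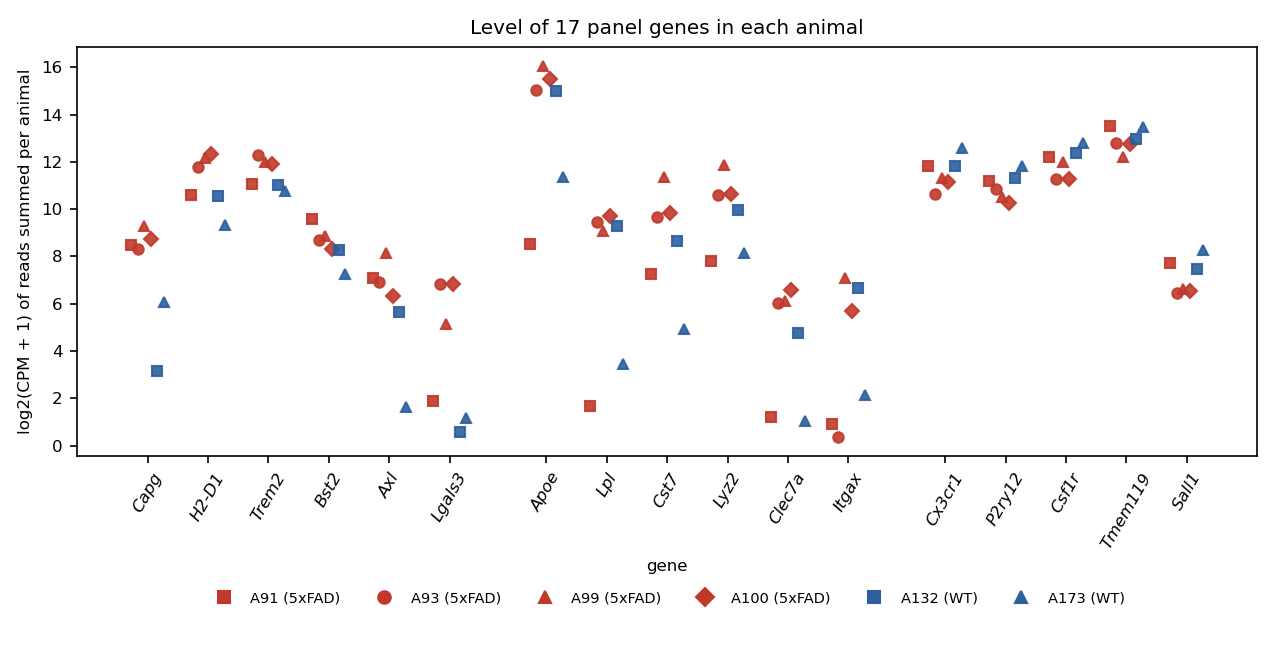
Levels of 17 panel genes in the 6 animals, as log2(CPM + 1) of reads summed per animal, with 5xFAD in red and WT in blue and a marker shape for each name prefix. Capg separates the genotypes, Apoe and Lpl put A91 (red square) low and A132 (blue square) high, and Tmem119 overlaps between the genotypes.

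Of the 40 panel genes, which hold the best known DAM and homeostatic genes, 5 were higher and 3 lower at an unadjusted p under 0.05, and none passed the adjusted threshold. The 5 were Capg, H2-D1, Lgals3, Trem2 and Bst2, and the 3 were Cx3cr1, P2ry12 and Csf1r. The median log2 fold change of the panel was 0.68, against 0.13 over all genes tested, and 1.67 against 0.23 without A91 and A132. A positive log2 fold change was found in 30 of the 40, and in 54.2% of all genes tested. For 6 panel genes every 5xFAD animal lay above both WT animals, and for 3 below, where 3.42% and 8.37% of all genes did so. With scaled library sizes 4 panel genes lay above, without Trem2 and H2-D1, and 3 below, beside 4.26% and 6.71% of all genes. The shares of 54.2%, 3.42% and 8.37%, with 1.82% and 1.44% at an unadjusted p under 0.05, are the background for the gene lists that follow.

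Trem2 (GRCm38 17:48346401-48354147) encodes the receptor that binds lipids and apolipoproteins on microglia. It stood at 2110, 5071, 4075 and 3826 CPM in A91, A93, A99 and A100 (mean 3771 ± 1231, SD, n = 4), and at 2092 and 1743 CPM in A132 and A173 (mean 1918 ± 246, SD, n = 2). The other 3 5xFAD animals lay well above both WT animals, while A91 was level with A132, and on scaled library sizes A91 lay under A132, at 1967 against 2113 CPM. The log2 fold change was 1.13 ± 0.40 (SE, unadjusted p = 0.0158 in edgeR), and without A91 and A132 it was 1.61. Its signalling adaptor Tyrobp overlapped between genotypes, at 1657 to 4627 CPM in 5xFAD and at 3071 and 1635 CPM in WT. Of 20 tested genes of the Trem2 receptor and its signalling, 1 was higher at an unadjusted p under 0.05, namely Trem2. Ptpn6, a phosphatase that dampens such signals, had 505, 703, 653 and 679 CPM in 5xFAD against 395 and 448 CPM in WT (log2 fold change 0.75 ± 0.40). The list's median was 0.17, near that of all genes.

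Among class I genes, which present peptides to CD8 T cells, H2-D1 (GRCm38 17:35262730-35267499) stood at 1538, 3484, 4519 and 5221 CPM in A91, A93, A99 and A100 and at 1501 and 633 CPM in A132 and A173. A91 and A132 were again level, with A91 under A132 on scaled library sizes (1434 against 1516 CPM). The other 5xFAD animals were more than 2-fold above both WT animals. The log2 fold change was 1.92 ± 0.57 (unadjusted p = 0.00604 in edgeR), and 3.10 without A91 and A132. H2-T23, a non-classical class I gene, had 760, 150, 280 and 510 CPM against 155 and 164 CPM, with A93 just below WT. B2m, the light chain shared by all class I molecules, had 1797, 2511, 3339 and 2515 CPM in 5xFAD and 2616 and 1157 CPM in WT, so that 3 of the 4 5xFAD animals lay between the WT animals. Its log2 fold change was 0.55, and 1.58 without A91 and A132. In the list of heavy chains and B2m, 10 of 11 tested genes had a positive log2 fold change, 2 at an unadjusted p under 0.05, with a median of 0.98. Class I genes are near-identical copies of each other, so reads may be divided among them. The peptide-loading and immunoproteasome list did not share this pattern: none of its 14 genes passed an unadjusted p of 0.05, and its median was 0.24. In that list the immunoproteasome subunit Psmb9 had 463, 511, 108 and 262 CPM in 5xFAD and 59.9 and 193 CPM in WT, while the chaperone Canx and the peptide transporter Tap2 were below WT in all 4 5xFAD animals.

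Class II genes, which present peptides to CD4 T cells, were carried by a pair of animals. H2-Ab1 stood at 974 CPM in A99 and 360 CPM in A100, against 1.77 and 0.572 CPM in A91 and A93 and 2.13 and 5.14 CPM in WT. H2-Eb1 was high in the same animals, at 461 and 86.7 CPM. A single A99 cell held 97.1% of the animal's H2-Ab1 reads and a single cell 99.2% of its H2-Eb1 reads, and without the top cell A99 stood at 29.1 and 3.79 CPM. In A100 the top cell held 68.1% and 75.2%. The log2 fold changes of 6.78 ± 2.59 and 7.07 ± 3.06 therefore rested on few cells of A99 and A100. A99 held macrophage markers too (Mrc1 at 64.4 CPM), A100 did not (0.292 CPM), and A173 held them (34.6 CPM) with little H2-Ab1. H2-Ob, a regulator of class II loading, ran the other way, at 54.9 to 155 CPM in 5xFAD and 287 and 268 CPM in WT. Of 10 class II genes tested, 2 were higher at an unadjusted p under 0.05 and none lower.

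Among first-stage DAM genes all 9 tested had a positive log2 fold change, with a median of 0.61, and 1 (H2-D1) passed an unadjusted p of 0.05. Summed per animal, they reached 64326, 125652 and 87739 CPM in A93, A99 and A100 but 18215 CPM in A91, and 63870 CPM in A132 but 20636 CPM in A173. The sums thus overlapped, and A91 was the lowest animal of all. For Apoe alone (GRCm38 7:19696109-19699188) the log2 fold change was 1.21 ± 2.05, well inside its error. Without A91 and A132 it was 4.55, for 3 animals against 1. With the name prefix as a block it was −0.75 ± 18.0, an error too wide to give a sign. Lyz2, a macrophage lysozyme, repeated the order, at 220, 1551, 3762 and 1611 CPM in 5xFAD and 995 and 280 CPM in WT.

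Second-stage DAM genes had a positive log2 fold change in 17 of 19, with a median of 0.92, and 3 passed an unadjusted p of 0.05: Gpnmb, Trem2 and Igf1. Gpnmb, a glycoprotein of lipid-laden macrophages, had 29.2, 126 and 139 CPM in A93, A99 and A100 and under 0.5 CPM in A91, A132 and A173. The growth factor Igf1 had 73, 68.8 and 44.1 CPM in those 3 animals, 0 in A91, and 0.947 and 1.14 CPM in WT. These genes were near 0 in both WT animals and in A91. Lpl, lipoprotein lipase, instead stood at 694, 535 and 843 CPM in A93, A99 and A100, 618 CPM in A132, 10.1 CPM in A173 and 2.22 CPM in A91. Its log2 fold change was 0.80 ± 1.55 with all animals and 6.38 without A91 and A132. With the name prefix as a block it was −0.78 ± 28.2, an error too wide to give a sign. Without A173 it was −0.19. The integrin Itgax overlapped widely, at 0.886 and 0.286 CPM in A91 and A93, 135 and 50.4 CPM in A99 and A100, 101 CPM in A132 and 3.43 CPM in A173.

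Cst7 (GRCm38 2:150570415-150578944), an inhibitor of cathepsins that is nearly absent from resting microglia, stood at 154, 806, 2618 and 908 CPM in A91, A93, A99 and A100. It stood at 396 CPM in A132 and 29.1 CPM in A173. A91 lay between the WT animals, and the log2 fold change was 2.53 ± 1.18 (unadjusted p = 0.0546 in edgeR), and 5.97 without A91 and A132. Of the cathepsins themselves, Ctsd spanned 7344 to 25644 CPM in 5xFAD and stood at 15411 and 8248 CPM in WT, and Ctsz spanned 3348 to 8857 CPM in 5xFAD and stood at 5714 and 2371 CPM in WT. None of the 15 tested cathepsins and cystatins passed an unadjusted p of 0.05 with all 6 animals. Without A91 and A132, the log2 fold change of Ctsz was 2.10, against 0.92 with all. Cst3, the most abundant cystatin, differed by less than its error (log2 fold change −0.03 ± 0.22).

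Capg (GRCm38 6:72544391-72562983), an actin-filament capping protein, was the panel gene with the smallest p. It stood at 360, 321, 617 and 432 CPM in A91, A93, A99 and A100, and at 7.81 and 67 CPM in A132 and A173. The 5xFAD animals did not overlap WT, and the log2 fold change was 3.78 ± 0.86 (unadjusted p = 0.00103 in edgeR). With the name prefix as a block, Capg passed the adjusted threshold in edgeR (4.49 ± 1.00, adjusted p = 0.0355). In the 4 animals of shared prefixes, with the same block, Capg did not pass (adjusted p = 0.096 in edgeR). Both fits draw the genotype difference from A91 with A132 and A99 with A173, since A93 and A100 stand alone under their prefixes. They leave few residual degrees of freedom, so their errors lean heavily on the spread of other genes. A single A91 cell held 809 of that animal's 813 Capg reads. The galectin Lgals3 had 2.66, 113, 34.4 and 115 CPM against 0.473 and 1.24 CPM, so A91 was close to WT. Its binding partner Lgals3bp had 1597, 429, 1467 and 942 CPM against 344 and 384 CPM, with a log2 fold change of 1.75 ± 0.53. These 3 were the members of the list of annexins and actin-binding genes, 35 tested, that passed an unadjusted p of 0.05 higher, and none passed lower. The list's median was −0.09, which turned positive (0.04) when library sizes were scaled by DESeq2's size factors.

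Homeostatic genes were lower in most members. Of 22 tested, 18 had a negative log2 fold change, with a median of −0.25, and 3 passed an unadjusted p of 0.05. The fractalkine receptor Cx3cr1 (GRCm38 9:119901616-120069879) stood at 3622, 1610, 2517 and 2243 CPM in A91, A93, A99 and A100, and at 3657 and 6075 CPM in A132 and A173. The purine receptor P2ry12 had 2342, 1868, 1477 and 1230 CPM against 2569 and 3615 CPM. Csf1r, the receptor for the survival factor of microglia, had 4771, 2503, 4134 and 2475 CPM against 5258 and 7191 CPM. In all 3, every 5xFAD animal lay below both WT animals, and A91 was the 5xFAD animal nearest to WT. Their log2 fold changes were −0.81 ± 0.32, −0.69 ± 0.31 and −0.69 ± 0.31. The transcription factor Sall1, which keeps microglial identity, had 213, 86.6, 98.2 and 93.2 CPM against 176 and 306 CPM, and Tmem119 overlapped at 4727 to 11737 CPM in 5xFAD and 7970 and 11467 CPM in WT. Fewer cells in the homeostatic state and less RNA of these genes per cell cannot be told apart in the summed values.

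In the type I interferon list, 3 of 28 tested genes were higher at an unadjusted p under 0.05 and none lower, with a median of 0.98. The antiviral gene Oasl2 had 120, 31.6, 124 and 48.3 CPM in 5xFAD against 2.6 and 5.23 CPM in WT. Ifi27l2a had 136, 130, 312 and 238 CPM against 56.3 and 14.3 CPM, and Bst2, which tethers budding virions, had 765, 419, 469 and 314 CPM against 306 and 150 CPM. Summed per animal, the 5xFAD animals lay above WT in these 3. For Bst2, 1 A91 cell held 97.9% of that animal's reads, and A91 stood at 22.2 CPM without it. Over single cells, the list's sum had medians of 141, 684, 613 and 624 CPM in A91, A93, A99 and A100. In A132 and A173 the medians were 1012 and 320 CPM. Among glycolysis genes, 3 of 17 were higher at an unadjusted p under 0.05 and none lower, with a median of 0.68. Tpi1 had 169, 173, 466 and 328 CPM against 40.5 and 60.1 CPM, Aldoa 1342, 841, 1247 and 1057 CPM against 784 and 430 CPM, and Ldha 521, 378, 692 and 499 CPM against 285 and 272 CPM. The genotypes did not overlap in these 3 enzymes, and 5 of the 17 genes lay above WT in every 5xFAD animal, beside 3.42% of all genes.

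Lysosomal genes had 3 of 33 higher at an unadjusted p under 0.05 and none lower, with a median of 0.42. Among them, the lysosomal membrane protein gene Laptm5 had 6085, 4380, 5593 and 5103 CPM against 2656 and 4717 CPM, and the cholesterol carrier Npc2 had 894, 1468, 1638 and 1181 CPM against 902 and 501 CPM. In the lipid list, 3 of 22 were higher and none lower: Nceh1, a cholesteryl ester hydrolase, had 50.3 and 254 CPM in A99 and A100 and at most 5.29 CPM elsewhere, and the lipid droplet protein Plin3 had 81.6, 91.1 and 286 CPM in A93, A99 and A100 and at most 11.1 CPM elsewhere. Nuclear genes of the respiratory chain had 3 of 89 higher at an unadjusted p under 0.05, a share near the 1.82% of all genes. Smallest in p was the assembly factor Ndufaf3 at 94.8, 60.1, 131 and 133 CPM against 7.57 and 2.09 CPM.

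Ribosomal protein genes had 0 of 86 past an unadjusted p of 0.05 in edgeR and a median of 0.06, below 0 on upper-quartile scaling or library totals alone. Complement, Fc and phagocytic receptors had 1 of 25, the integrin Itgav at 83.3, 65.4, 127 and 52.7 CPM against 1.89 and 7.71 CPM, and a median of 0.12 that was below 0 on library totals alone. Of 21 chemokines and cytokines, Ccl12 was higher (370, 19.7, 106 and 94.9 CPM against 1.18 and 32.1 CPM) and Tlr4 lower (0 in all 4 against 3.79 and 3.9 CPM). Of 27 tested genes near Alzheimer risk loci, Trem2 was higher and none lower. In the immediate early list, whose median was 0.86, 2 of 21 were higher: Ier3 had 88.6, 42.1 and 119 CPM in A93, A99 and A100, and Dusp1 had 77.3 and 18.7 CPM in A99 and A100, both under 1 CPM in A91, A132 and A173. Iron genes, 9 tested with a median of 0.45, and cell cycle genes, 12 tested with a median of 0.12, had 0 at an unadjusted p under 0.05 in edgeR.

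The genes with the smallest p among those at 20 CPM or more whose animals did not overlap were Fzr1, Capg, Zfp692, Ctu2, Dapk3, Map2k2, Ccdc86, Tpi1, Rps6ka4 and Arl11 on the higher side. Fzr1 (GRCm38 10:81366222-81378516) had 469, 251, 267 and 175 CPM in A91, A93, A99 and A100 against 10.4 and 3.24 CPM in A132 and A173. Its log2 fold change was 5.49 ± 0.90 (adjusted p = 0.76 in edgeR). It passed the adjusted threshold with the name prefix as a block, and in the 4 animals of shared prefixes (adjusted p = 0.0382 in edgeR). Both fits draw the genotype difference from the same pairs, A91 with A132 and A99 with A173. The second fit is therefore no repeat of the first. Both leave few residual degrees of freedom and lean heavily on the spread of other genes. The kinase Map2k2 had 589, 792, 425 and 498 CPM against 166 and 175 CPM, with a log2 fold change of 1.89 ± 0.47. On the lower side were E2f2, Slc12a4, Relt, Hspa2, Apex2, Sars2, H2-T-ps, Pqlc1, Tmem52 and Matk. The cell cycle transcription factor E2f2 had 0, 0.143, 0.333 and 0 CPM in 5xFAD against 77.6 and 64.6 CPM in WT. The tyrosine kinase Matk was read in all animals, at 233, 129, 105 and 87.6 CPM against 503 and 426 CPM (log2 fold change −1.64 ± 0.53), with 78.0% of the A99 reads in 1 cell. These genes were ranked by p and by non-overlap in this same comparison, so their separation is a description.

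Cells of an animal differed in level. The SD of log2(CPM + 1) between cells of an animal ran from 0.99 to 1.78 for Trem2 and from 1.76 to 4.06 for Capg. Trem2 was read in each of the 113 cells, with a median over cells of 2256 CPM in A91, 4447 in A93, 3376 in A99 and 2663 in A100, against 1761 in A132 and 1716 in A173. H2-D1 medians were 1307, 2706, 4476 and 4426 CPM against 1886 and 419 CPM. Cx3cr1 medians were 4922, 1483, 2058 and 1898 CPM against 3388 and 5593 CPM. By the median cell, A93, A99 and A100 lay beyond both WT animals in these 3 genes, as in the sums, whereas A91 lay below A132 in H2-D1 and above A132 in Cx3cr1.

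**Figure D2:**
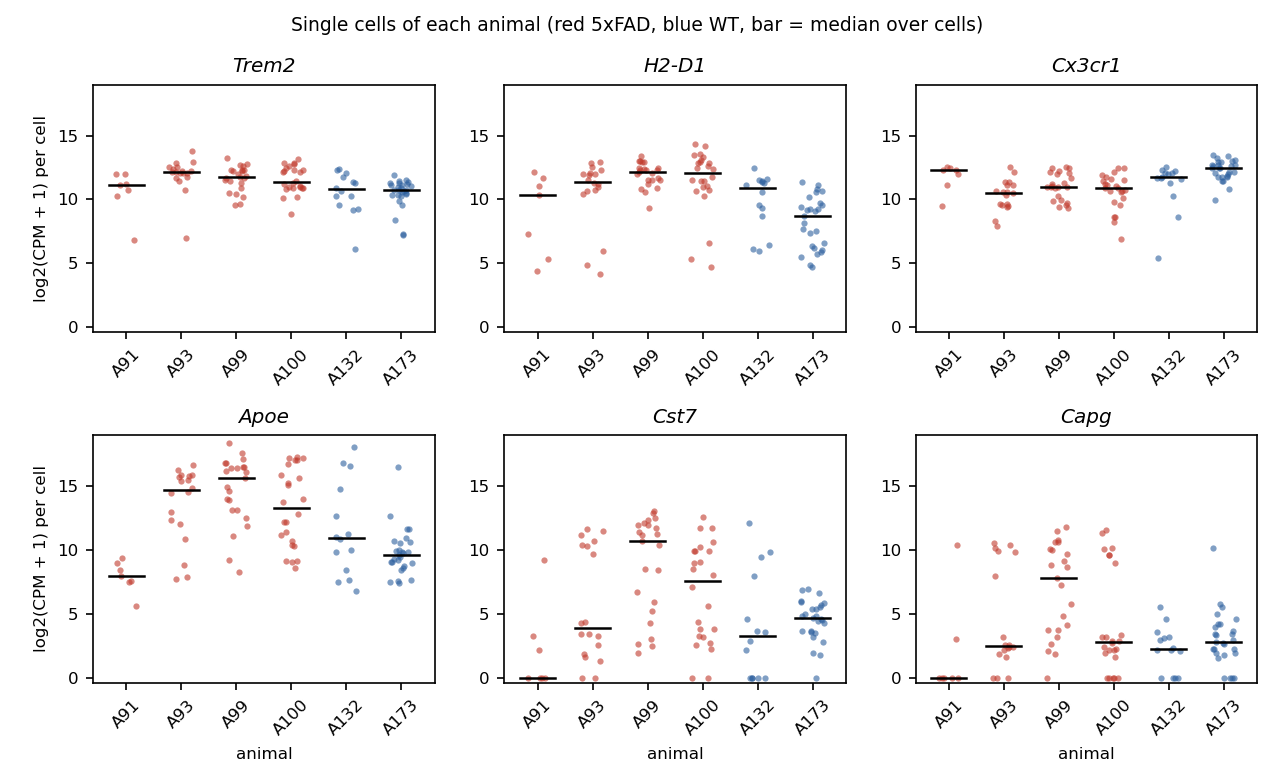
Levels of 6 genes in single cells of each animal, as log2(CPM + 1), with 5xFAD cells in red, WT cells in blue and a bar at the median over cells. Trem2 and Cx3cr1 were read in every cell, while Cst7 and Capg spread from near 0 to high levels, with 13 of 23 A99 cells and 0 of 14 A132 cells at 100 CPM or more of Capg.

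Cst7, Lpl and Capg were high in some cells of an animal and near 0 in others. At 100 CPM or more, Cst7 was present in 1 of 7 cells of A91, 7 of 18 of A93, 16 of 23 of A99 and 13 of 24 of A100, and in 4 of 14 of A132 and 2 of 27 of A173. As shares these were 14.3%, 38.9%, 69.6% and 54.2% against 28.6% and 7.41%, with exact 95% intervals as wide as 0.361% to 57.9% in A91 and 47.1% to 86.8% in A99. Intervals cover counting of cells only. A read of any size was a poor measure, since 26 of 27 A173 cells had at least 1 Cst7 read but the highest stood at 120 CPM. The source of such low reads was not tested. Thinned to 50000 reads per cell, 17 of the 27 still had a read. Capg at 100 CPM or more was present in 1, 6, 13 and 7 cells of A91, A93, A99 and A100, and in 0 of A132 and 1 of A173. Lpl was present in 0, 7, 12 and 12 cells, against 4 in A132 and 0 in A173.

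The same cells tended to carry these genes. Of the 72 cells of the 4 5xFAD animals, 37 had Cst7 and 31 had Lpl at 100 CPM or more, and 28 had both. Of the 41 WT cells, 6 had Cst7, 4 had Lpl and 3 had both, all 3 in A132. Cst7, Lpl and Capg together were at 100 CPM or more in 15 5xFAD cells (2 of A93, 8 of A99 and 5 of A100) and in 0 WT cells. None of the 3 was at that level in 29 5xFAD cells and in 33 WT cells, so many 5xFAD cells resembled most WT cells in these genes. In A132, 4 of 14 cells had Apoe at 10000 CPM or more, and the same 4 had Lpl at 100 CPM or more. A single A132 cell held 49.3% of the animal's Apoe reads, and without it A132 stood at 17476 CPM. In A91 no cell reached 10000 CPM of Apoe, and the highest had 675 CPM.

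**Figure D3:**
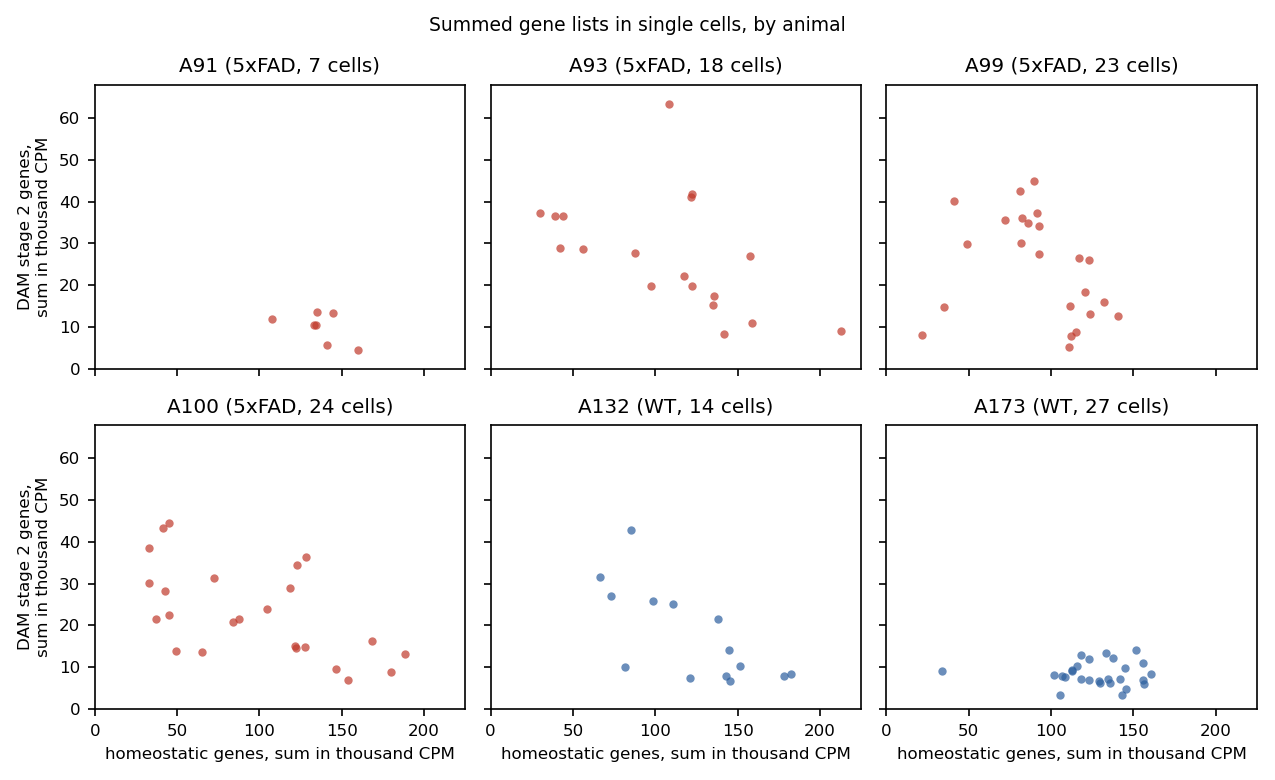
Each point is 1 cell, with the summed level of 22 homeostatic genes on the x axis and of 19 second-stage DAM genes on the y axis, both in units of 1000 CPM, 1 panel per animal. A93, A99, A100 and A132 hold cells high in DAM genes, while A91 and A173 reach at most 13574 and 14046 CPM of DAM genes.

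Summed over the list, second-stage DAM genes had a median over cells of 10572 CPM in A91, 27375 in A93, 26583 in A99 and 21587 in A100, against 12186 in A132 and 7963 in A173. The highest cell of A91 reached 13574 CPM and the highest of A173 14046 CPM, whereas A132 reached 42916 CPM, in the range of the other 5xFAD animals. Homeostatic genes had medians of 135082, 119700, 92524 and 96255 CPM against 129591 and 129645 CPM. Within an animal the sums ran against each other, with Spearman's rho of −0.32 in A91 (7 cells), −0.65 in A93, −0.43 in A99, −0.59 in A100 and −0.67 in A132, and −0.07 in A173. Both sums are shares of the same cell's reads, which can set such a relation in part. DAM sums went little with the reads per cell, with rho from −0.27 to 0.34.

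Several differences rested on single cells. In A91, Capg came almost entirely from 1 cell, which held 809 of 813 reads and stood at 1373 CPM, while no other A91 cell exceeded 7.36 CPM. This was the cell of most reads in A91, with 589051 of them, 26.1% of the animal's total. The same cell held over 90% of the A91 reads of 6 panel genes: Cst7, Capg, Axl, Ifitm3, Bst2 and Anxa5. It also held over 90% for 4 more of the 10 genes of smallest p on the higher side, namely Ctu2, Dapk3, Rps6ka4 and Arl11. Its Apoe was as low as in the other A91 cells, at 336 CPM. Without it A91 stood at 2.4 CPM of Capg and 22.2 CPM of Bst2, below both WT animals for each. The log2 fold change of Capg was then 3.45 ± 1.51 (unadjusted p = 0.0416 in edgeR), that of Bst2 0.55 ± 0.91, and that of Trem2 1.10 ± 0.39.

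Each gene's highest cell was next left out of every animal. In unscaled CPM, 1 of the 6 panel genes stayed above WT in every 5xFAD animal (Trem2), and 2 of the 3 stayed below (Cx3cr1 and Csf1r). On scaled library sizes A91 lay under A132 for Trem2 even with all cells, at 1967 against 2113 CPM. Of the 10 genes of smallest p on the higher side, 3 stayed: Fzr1, Map2k2 and Tpi1. On the lower side 8 of 10 stayed, all but Sars2 and Pqlc1. Apart from Matk, the lower genes stood at no more than 6.77 CPM in A91, A93, A99 and A100 beforehand. They reached the 20 CPM mean through WT, so leaving out 5xFAD cells could hardly bring overlap. This count is thus not comparable with that of the higher side. Fzr1 itself was at 100 CPM or more in 2, 3, 3 and 5 cells of A91, A93, A99 and A100, and in 1 cell of A132 and 0 of A173. E2f2 was at that level in 0 5xFAD cells, 2 A132 cells and 3 A173 cells. Matk was at that level in 2, 3, 3 and 3 5xFAD cells against 6 and 9 WT cells.

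**Figure D4:**
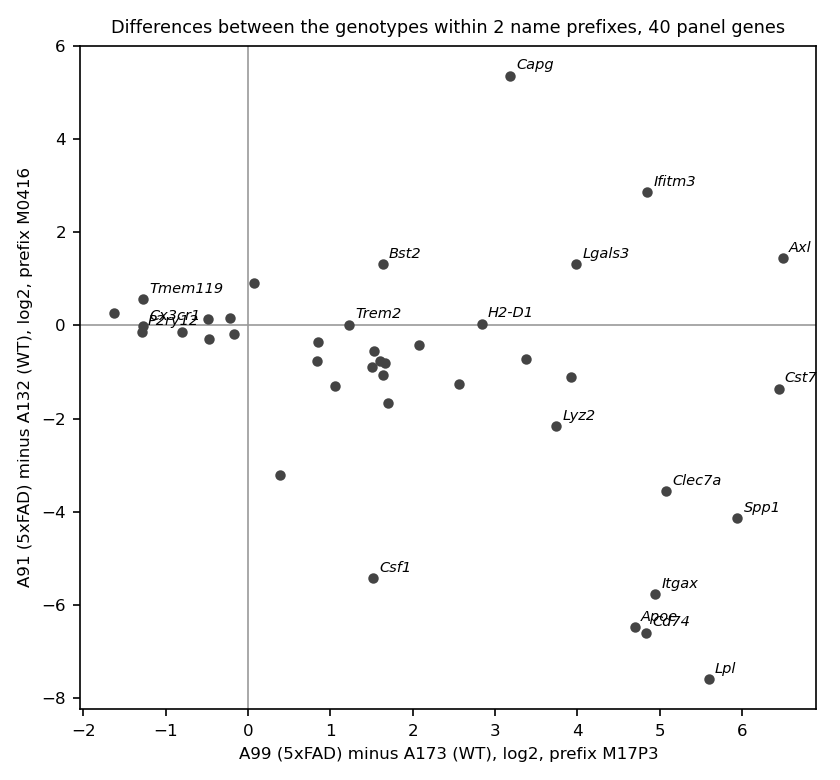
Difference between the 5xFAD and the WT animal within each of 2 name prefixes for 40 panel genes, in log2 units, with A99 minus A173 on the x axis and A91 minus A132 on the y axis. Apoe, Lpl and Cd74 lie far right and far down, while Capg, Axl and Ifitm3 lie above 0 in both.

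The name prefixes that hold both genotypes gave different pictures. In M17P3, 31 of 40 panel genes were higher in the 5xFAD animal, and in M0416, 12 were. For 27 the sign differed between the prefixes. Apoe was 4.70 higher in A99 than in A173 and 6.47 lower in A91 than in A132 (log2 units). Lpl was 5.59 higher and 7.59 lower. Trem2 was 1.22 higher in M17P3 and 0.01 higher in M0416, and H2-D1 was 2.83 and 0.04 higher. Capg was higher in both, by 3.18 and 5.36, the latter resting on the A91 cell above. All 19 second-stage DAM genes were higher in A99 than in A173, and 3 were higher in A91 than in A132. Each prefix has 1 animal of a genotype, so these differences have no replicate check, and A91 has only 7 cells.

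The study also took microglia of aged WT mice from white and grey matter, and the 5xFAD difference was set beside the white matter difference. Aged libraries came from 6 animals (A2 to A7, 18 or 19 months old), each with both tissues, with 7 to 44 cells per library. The 5xFAD effect minus the white matter effect was tested over 10713 of the 13256 genes with reads in both tables, after the filter on low counts. None passed an adjusted p of 0.05 in edgeR (0.0%), while 425 fell under an unadjusted p of 0.05 (3.97%). DESeq2, run without that filter, made calls among 12230 genes, 56 higher and 21 lower. A failure to pass the threshold does not show that the effects were alike.

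**Figure D5:**
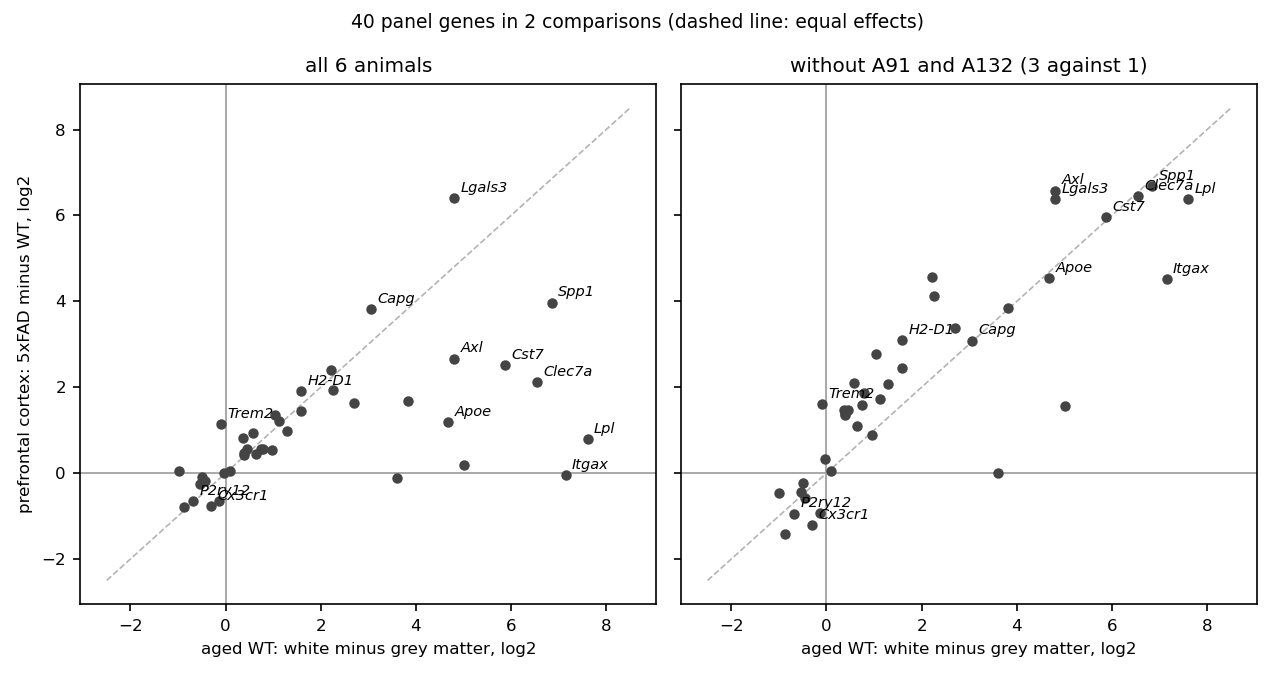
Log2 fold changes of 40 panel genes in aged WT white against grey matter (x axis) and in 5xFAD against WT prefrontal cortex (y axis), with all 6 prefrontal cortex animals (left) and without A91 and A132 (right). Lpl, Itgax and Cst7 lie below the line of equal effects on the left, and Cst7 reaches it on the right, at 5.88 and 5.97.

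Trem2 had the clearest difference on the side of 5xFAD within the panel, with a 5xFAD effect of 1.14 ± 0.34 and a white matter effect of −0.10 ± 0.22, a difference of 1.25 ± 0.40 (unadjusted p = 0.00579 in edgeR). It was higher in white matter in 2 of 6 aged animals. Lpl lay on the other side, at 0.79 ± 1.51 in 5xFAD and 7.61 ± 1.55 in white matter, a difference of −6.82 ± 1.97, which shrank to −1.19 without A91 and A132. Cst7 differed by −3.37 ± 1.45 with all animals and by 0.11 without those 2. Capg had effects of 3.82 ± 1.10 and 3.07 ± 0.69, and H2-D1 of 1.92 ± 0.48 and 1.59 ± 0.31, with both genes higher in white matter in 6 of 6 aged animals. P2ry12 had −0.66 ± 0.25 and −0.68 ± 0.17, and was lower in white matter in all 6. Cx3cr1 had −0.78 ± 0.26 and −0.30 ± 0.18. Fzr1 had a 5xFAD effect of 5.50 ± 1.46 and a white matter effect of 0.18 ± 0.90. Over second-stage DAM genes the median effect was 1.04 in 5xFAD and 3.20 in white matter, with a median difference of −0.23, or 0.68 without A91 and A132. The tables come from other animals, ages and sexes, so each effect was taken within its own table.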

How the data were processed

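Single-cell Smart-seq2 libraries of prefrontal cortex microglia were compared between genotypes. The authors deposited tables of raw counts, with genes in rows and cells in columns. Per the submitters' processing notes, bcl2fastq, FastQC and Trim Galore were used, with mm10. For the aligner and counter, nothing is stated in the sources used here. The prefrontal cortex table lists 16012 genes, of which 1176 have 0 reads in all cells. Reads were summed per animal with 5 or more cells, filtered with filterByExpr, scaled with TMM and tested with edgeR 4.0.16 (robust quasi-likelihood, 4 residual degrees of freedom) in R 4.3.3. Fits with the name prefix as a block leave fewer residual degrees of freedom. The difference of effects used animal as a block for the aged tissues, whose pairing comes from the animal label (correlation of paired deviations 0.03 to 0.08). In the aged table, 2 wells listed again were left out. CPM are reads per 1000000 without TMM scaling. The smallest two-sided permutation p of 4 against 2 animals is 0.0667, so no exact test was used. Labels do not say how animals relate, so p-values measure the spread between these animals. Named genes were a panel of 40, up to 10 genes of smallest p without overlap in each direction at 20 CPM or more, and the 4 members of smallest p of each list, not all of which are printed, and some items are not reported here. The members and lists were chosen with earlier results of these data known. Doublets were not called. The scripts were tested on simulated data. Alternatives covered scaling, tool (DESeq2 1.42.0, limma 3.58.1), filters, cells and animals.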

Additional observations from a re-analysis of the deposited data

Results flagged for a closer look

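Of 59 genes checked in the 4 5xFAD animals, 4 had an animal far from the other 3, where chance gives about 1 in 20. Ccl6, a chemokine, stood at 355 CPM in A99 against 57.6, 75.1 and 103 CPM. Sall1 stood at 213 CPM in A91 against 86.6, 93.2 and 98.2 CPM. Ccdc86 stood at 20.03 CPM in A93 against 203, 222 and 231 CPM. Sars2 stood at 6.77 CPM in A99 against 0, 0.194 and 0.286 CPM.

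The animal left out of the comparison, A187 (5xFAD, male, 5 months, 3 cells), lay above both WT animals in 10 of the panel genes described. Homeostatic genes among them were Cx3cr1 at 8093 CPM, P2ry12 at 4236, Sall1 at 369, Gpr34 at 872, Siglech at 2023 and Cst3 at 73882. The others were Trem2 at 3512 CPM, Ctsb at 6016, Spp1 at 80.8 and Lgals3 at 2.76. Its Capg was 6.9 CPM and its Cst7 11.7 CPM, and with 3 cells these are values without an error.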

How the results depend on the processing

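Calls depended on the setting. In 5xFAD against WT, DESeq2 made 97 calls higher and 92 lower over 13221 genes, with no filter on low counts. The calls that follow are from edgeR, which made 0 in either direction over 9668 filtered genes with 6 animals. Without a filter on low counts there were 14 higher and 2 lower, with the name prefix as a block 2 and 1 (Fzr1 and Capg, and Cdkn1a), with the 4 animals of shared prefixes and that block 1 and 0 (Fzr1), and without A91 and A132 2 and 0 (Apoe and Lpl, chosen after seeing the data). The cause was not tested. Leaving out each animal in turn gave 0 to 0 calls in each direction, for this comparison and for the difference of effects, and the lone WT animal left was then assumed to vary like the 5xFAD animals. The difference of effects had 0 calls over 10713 genes, also with no replicate block (0 and 0). In DESeq2, without the filter, it had 56 higher and 21 lower over 12230 genes. Prefrontal cortex animals share no replicate numbers, so the only pairing fitted there was by name prefix. Among the panel genes, 25 kept the sign of their log2 fold change under all alternatives, and 15 did not. Scaling moved the median of all genes from 0.13 to 0.17 (DESeq2 size factors), 0.04 (upper quartile) and −0.03 (library totals alone). With only cells under 1000 CPM for every list of another type's markers, 62 cells were left. The 5 animals with enough of them, without A91, gave 0 calls in edgeR. The limit of 50000 reads per cell removed no cell. With 7 cells, A91 sets the depth limit: its levels rest on few cells.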
